A study of Mus musculus with 265 samples.

Results

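The regions described here are the accessible regions at the promoters of proteasome genes and of ubiquitin-conjugating genes in mouse pre-B cells. A region was included when its midpoint lay within 1 kb of the start of a protein-coding gene in GENCODE vM21 whose symbol begins with Psma, Psmb, Psmc, Psmd, Psme, Uba, Ube2, Ube3 or Ube4. This gave 96 of the 20103 regions in the table, 40 at 36 proteasome genes and 56 at 46 ubiquitin genes. These classes include 9 genes, with 11 regions, that share only a prefix. The prefixes cover 105 genes in the annotation, of which 82 had a region and 14 had 2 regions. Another 8690 regions lay within 1 kb of the start of other protein-coding genes and served as the comparison.

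Single-cell ATAC-seq, in which Tn5 transposase cuts and tags open DNA, covered 95 cells at 0 hours and 132 cells at 24 hours. All groups were ERt2-Ikaros inducible B3 cells, a pre-B line from mouse that carries the transcription factor Ikaros fused to the ERt2 part of the estrogen receptor, so that 4-hydroxytamoxifen brings it into the nucleus. The 0-hour group preceded the drug, and the 24-hour group had received 4-hydroxytamoxifen, given in the labels as 20 mM, with another dose at about 12 hours. The construct was present at both time-points, and cells without it, or cells with the drug but without Ikaros fused to ERt2, were not analysed here. Each time-point had 2 Fluidigm C1 runs, and the counts were summed over the 48, 47, 60 and 72 cells of the runs, referred to as 0 h run 1, 0 h run 2, 24 h run 1 and 24 h run 2. The run totals were 164357, 92639, 122586 and 142611 counts, so 0 h run 2 had the least precise values. The sources do not say whether the runs came from separate cultures, and the p-values measure the spread between runs, which may be technical. Of 12 pre-B markers 8 had a promoter region, with a median of 7.49% of cells with signal, among them Cd79a, Cd79b, Pax5 and Ebf1, while Rag1, Rag2 and Ikzf1 were among those with none within 1 kb. Of 5 myeloid markers, Lyz2 alone had a region, with signal in 2.64% of cells, and none of 7 T cell, 3 erythroid and 4 stromal markers had a region.

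The proteasome is the protease that degrades most short-lived and misfolded proteins of the cell. Its 20S core is built of alpha subunits, which form the outer rings, and beta subunits, some of which cut peptides, and its 19S cap is built of ATPases (Psmc) that unfold substrates and of non-ATPase subunits (Psmd) that bind and remove ubiquitin. Substrates are marked by ubiquitin, which an E1 enzyme (Uba) activates, an E2 enzyme (Ube2) carries and an E3 ligase (Ube3) or an E4 chain-elongating ligase (Ube4) helps to transfer, and related enzymes carry ubiquitin-like proteins such as NEDD8 and ISG15. In pre-B cells, degradation of cell-cycle and signalling proteins by this system accompanies the change from proliferation to differentiation.

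The sequences that the results return to are those of Ube4a, the single region that passed the test between time-points, and of promoters from either class with and without the letters CCGGAA, the core of the sites of ETS transcription factors. They are the stretches of the regions outside annotated UTRs, read from the GRCm38 genome, which has the coordinates of mm10, on the strand of the gene. Capitals mark CCGGAA, the Ikaros core GGGAA or the NF-Y core CCAAT, in either orientation. Psmc3, Psmd11, Psmd6 and Psmb1 show proteasome promoters with CCGGAA, and Psmd4 and Psme2 show regions whose 24-hour runs lay below the 0-hour runs. The Psme2 window of 200 bp lacked CCGGAA. The stretches of Psmd4 and Ube2c printed here also lack it, though the windows of these regions held it 2 times and 1 time.
Ube4a, chr9:44965601-44965681, minus strand: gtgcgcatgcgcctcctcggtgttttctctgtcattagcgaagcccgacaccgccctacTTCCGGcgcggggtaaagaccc
Psmc3, chr2:91053933-91054008, plus strand: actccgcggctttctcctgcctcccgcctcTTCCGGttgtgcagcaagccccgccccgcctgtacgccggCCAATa
Psmd11, chr11:80428491-80428622, plus strand: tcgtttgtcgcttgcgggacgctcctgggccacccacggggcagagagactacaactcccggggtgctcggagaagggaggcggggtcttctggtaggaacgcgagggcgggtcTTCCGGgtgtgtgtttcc
Psmd6, chr14:14120985-14121063, minus strand: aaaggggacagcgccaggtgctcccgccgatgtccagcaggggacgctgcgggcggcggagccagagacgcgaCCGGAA
Psmb1, chr17:15499784-15499887, minus strand: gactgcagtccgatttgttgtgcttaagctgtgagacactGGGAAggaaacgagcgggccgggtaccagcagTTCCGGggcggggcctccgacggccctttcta
Psmd4, chr3:95042615-95042731, minus strand: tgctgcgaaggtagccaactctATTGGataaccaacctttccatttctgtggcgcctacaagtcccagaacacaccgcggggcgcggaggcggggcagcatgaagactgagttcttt
Psme2, chr14:55591114-55591190, minus strand: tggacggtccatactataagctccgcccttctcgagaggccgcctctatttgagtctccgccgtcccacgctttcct
Ube2c, chr2:164769716-164769829, plus strand: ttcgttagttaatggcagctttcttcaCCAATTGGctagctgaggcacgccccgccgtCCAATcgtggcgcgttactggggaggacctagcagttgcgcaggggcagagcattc
Ube2g1, chr11:72607102-72607252, plus strand: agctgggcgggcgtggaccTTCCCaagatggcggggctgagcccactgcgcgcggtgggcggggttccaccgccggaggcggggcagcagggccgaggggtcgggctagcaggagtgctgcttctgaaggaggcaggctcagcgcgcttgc

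The proteasome regions lay close to the gene starts. Their median distance was 65.75 bp, against 138 bp for the ubiquitin genes and 75.5 bp for other promoter regions, and 26 of 40 (65%) lay within 100 bp, against 23 of 56 (41.1%) and 59% of other promoter regions. Of the 96 regions, 40 contained the start itself, 63 overlapped an annotated UTR and 33 overlapped no exon. Some regions were shared with a neighbouring start. Of the proteasome regions, 12 of 40 (30%) lay within 1 kb of the start of another protein-coding gene, against 6 of 56 (10.7%) and 13.8% of other promoter regions. The pairs were Psmc2 with Dnajc2, Psmc5 with Ftsj3, Psmd10 with Atg4a, Psmd13 with Sirt3, Psma2 with Mrpl32, Psma4 with AY074887, Psma7 with Ss18l1, Psmb1 with Tbp, Psme2 with Rnf31 and Psmb9 with Tap1. Signal in such a region cannot be assigned to either gene of the pair. Nearest inside the limit of 1 kb were a Psmb3 region at 840.5 bp, with signal in 16 cells, and a Ube2q1 region at 826 bp in 10 cells. Nearest outside it were regions at 1044 bp from Ube2e3 in 12 cells, 1045 bp from Uba2 in 24 cells and 1123.5 bp from Ube2d3 in 5 cells.

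In windows of 200 bp centred on the regions and read on both strands, CCGGAA was found in 21 of 40 proteasome windows (52.5%), in 16 of 56 ubiquitin windows (28.6%) and in 28.5% of other promoter windows. By gene, 20 of 36 proteasome genes (55.6%) and 15 of 46 ubiquitin genes (32.6%) had a window with it. Within the proteasome it was in 4 of 6 windows of 19S ATPases, 9 of 13 of 19S non-ATPases, 4 of 8 of 20S beta subunits, 2 of 5 of activators, 1 of 6 of 20S alpha subunits and 0 of 1 of the immunoproteasome subunit Psmb9. The remaining window of this class with it was that of Psmc3ip, which shares only the prefix. Among regions within 100 bp of the start the shares were 57.7%, 21.7% and 34.2% for proteasome, ubiquitin and other promoter windows, a comparison chosen after the data were seen. GGGAA was in 52.5%, 39.3% and 47.4% of windows, CCAAT in 37.5%, 25% and 34.2%, and TGAC followed by any 3 bases and GC, the core of the antioxidant response element, in 15%, 10.7% and 11.5%. The E-box CACGTG was in 2.5%, 8.93% and 8.94%, and GCATGCG, a part of the NRF1 site, in 5%, 3.57% and 5.83%. The median GC content of the windows was 62%, 67% and 65.5%. These are descriptions of letters in the windows and no sites were measured. The proteasome windows with CCGGAA had signal in a median of 7.49% of cells and those without it in 10.6%.

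**Figure D1:**
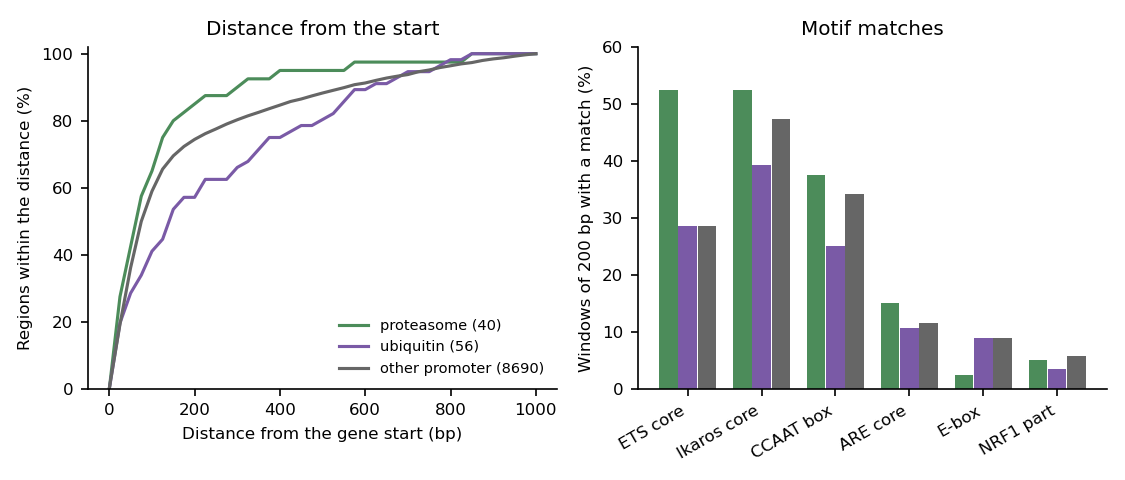
Left, the share of regions (y axis, %) whose midpoint lies within a given distance of the gene start (x axis, bp) for proteasome, ubiquitin and other promoter regions. Right, the share of 200 bp windows (y axis, %) with each motif, in the same colours, where the ETS core is CCGGAA (52.5%, 28.6% and 28.5%), the Ikaros core is GGGAA and the ARE core is the antioxidant response element.

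Signal in any member region was found in a small share of the cells. A proteasome region had signal in a median of 8.37% of the 227 cells, from 2.20% to 22.9%, and a ubiquitin region in 9.25%, from 2.20% to 21.6%. The median was 8.37% for other promoter regions and 4.41% for regions away from starts. No value in the table was above 2, and 52.9% of the proteasome values above 0 and 52.2% of the ubiquitin ones were 2, against 52.8% for other promoter regions. A 0-hour run 1 cell had signal in a median of 4 proteasome and 6.5 ubiquitin regions, against 2 and 3 in 0 h run 2, 4 and 4.5 in 24 h run 1, and 3 and 5 in 24 h run 2. With cells thinned to 837 counts, without the 23 cells below that depth, the 4 runs had medians of 1, 1, 2 and 2 proteasome regions and 2.5, 2, 3 and 3 ubiquitin regions.

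**Figure D2:**
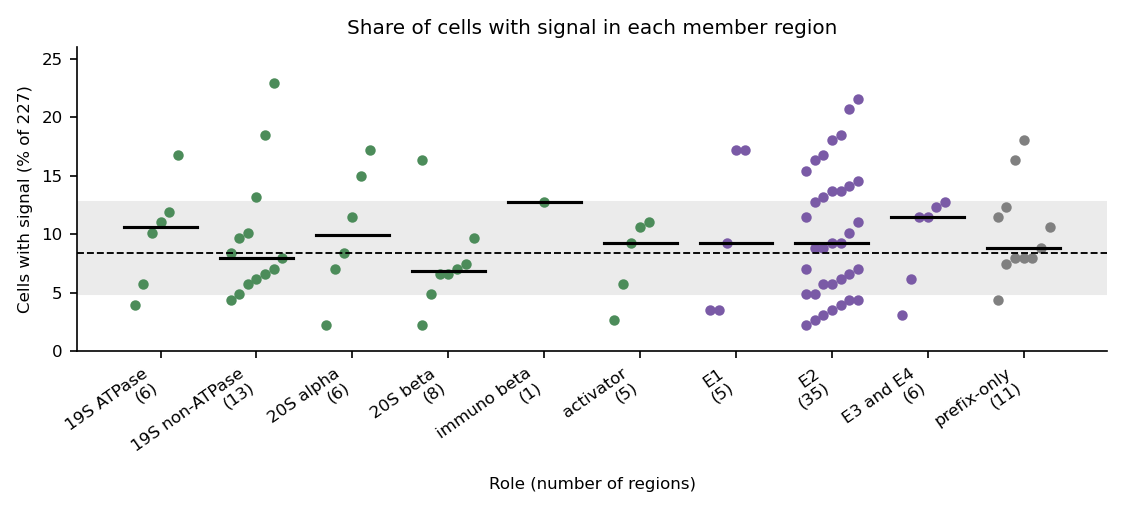
Share of the 227 cells with signal (y axis, %) in each of the 96 member regions, by role (x axis, with the number of regions). Bars are medians of the role, the dashed line is the median of other promoter regions (8.37%) and the grey band its quartiles. Psmd11 is the highest point (22.9%) and each role spans most of the band or more, apart from the immunoproteasome, which has 1 region.

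Both classes took a slightly larger share of the promoter counts in the 24-hour runs. Of the counts in promoter regions, those of the proteasome made up 0.415% and 0.409% before the drug and 0.480% and 0.431% after 24 hours, a log2 change of 0.14. The counting intervals of the runs overlapped, with 95% exact limits from 0.373 to 0.461% in 0 h run 1 and from 0.390 to 0.475% in 24 h run 2, and without 24 h run 1 the change was 0.065. Ubiquitin regions held 0.643% and 0.632% at 0 hours and 0.668% and 0.673% at 24 hours, a log2 change of 0.073, again with overlapping intervals. Relative to other promoter regions, the signal per proteasome region was 0.911, 0.899, 1.06 and 0.947 times theirs in the 4 runs, and per ubiquitin region 1.01, 0.991, 1.05 and 1.06 times. The ratio of proteasome to ubiquitin signal per region was 0.904, 0.907, 1.01 and 0.897, and the time-points overlapped. Promoter regions as a whole held 51%, 48.5%, 58.3% and 66.4% of all counts. Against all counts instead, the log2 changes of the members were 0.46 for the proteasome and 0.40 for ubiquitin genes. Such intervals cover counting error only, with counts taken as independent.

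**Figure D3:**
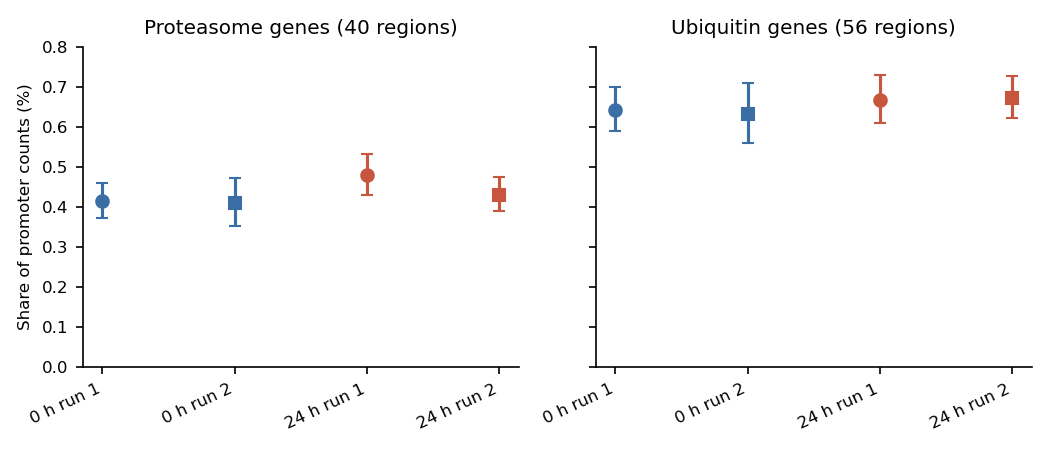
Share of the counts in promoter regions (y axis, %, from 0) that lay in proteasome regions (left) and ubiquitin regions (right) in each C1 run (x axis), with 95% exact counting intervals. The 24-hour runs lie above the 0-hour runs in either panel, at 0.480% and 0.431% against 0.415% and 0.409% for the proteasome, and the intervals overlap.

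Region by region, the Ube4a region alone passed the test between time-points. Of the 96 regions 1 was called higher at 24 hours and 0 were called lower at an adjusted p of 0.05, where 0.0398% and 0.0149% of all regions were called in the same fit. At an unadjusted p of 0.05 the test by edgeR had 8 member regions higher at 24 hours and 1 lower, where 7.68% of other promoter regions were higher and 1.92% lower, and DESeq2 had 5 and 0. The edgeR counts were 2 and 1 when runs were scaled by their cells. They also varied when a run was left out, and without 24 h run 1 calls rose over all regions in both directions. In normalized counts, 36 regions had both 24-hour values above both 0-hour values (37.5%), namely 15 of 40 proteasome and 21 of 56 ubiquitin regions, where the share was 27.9% of other promoter regions and 19.3% of all regions. The reverse held in 14 regions (14.6%), where the share was 13.1% and 25.7%. On counts per cell, a scaling chosen after the data were seen, 13 member regions had the 24-hour runs above and 18 the 0-hour runs, against 12.2% and 20.2% of other promoter regions. By class these were 3 (7.5%) and 6 (15%) of the 40 proteasome regions and 10 (17.9%) and 12 (21.4%) of the 56 ubiquitin regions, so the proteasome share above at 24 hours lay over that of other promoter regions in normalized counts and under it on counts per cell.

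The median log2 change of the members was 0.41, with 0.54 for the proteasome and 0.35 for ubiquitin genes, beside 0.33 for other promoter regions, -0.54 for regions away from starts and -0.06 for all regions. With the number of cells as the scale the median of all regions moved to -0.51, that of other promoter regions to -0.15 and that of the members to -0.06. The direction of the members' median thus depends on the scale. The medians of the members and of other promoter regions stayed above that of all regions under both scales. The median of other promoter regions was 0.52 without 0 h run 1 and 0.17 without 24 h run 2, beside 0.60 and 0.40 for the members, and that of all regions was 0.13 without 0 h run 1 and -0.26 without 24 h run 1. The absolute log2 difference between the 24-hour runs had a median of 0.72 over the members and that between the 0-hour runs 0.75. The single region at 0 counts in both runs of a time-point, at Psmd13, does not move these medians when set to its bound.

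**Figure D4:**
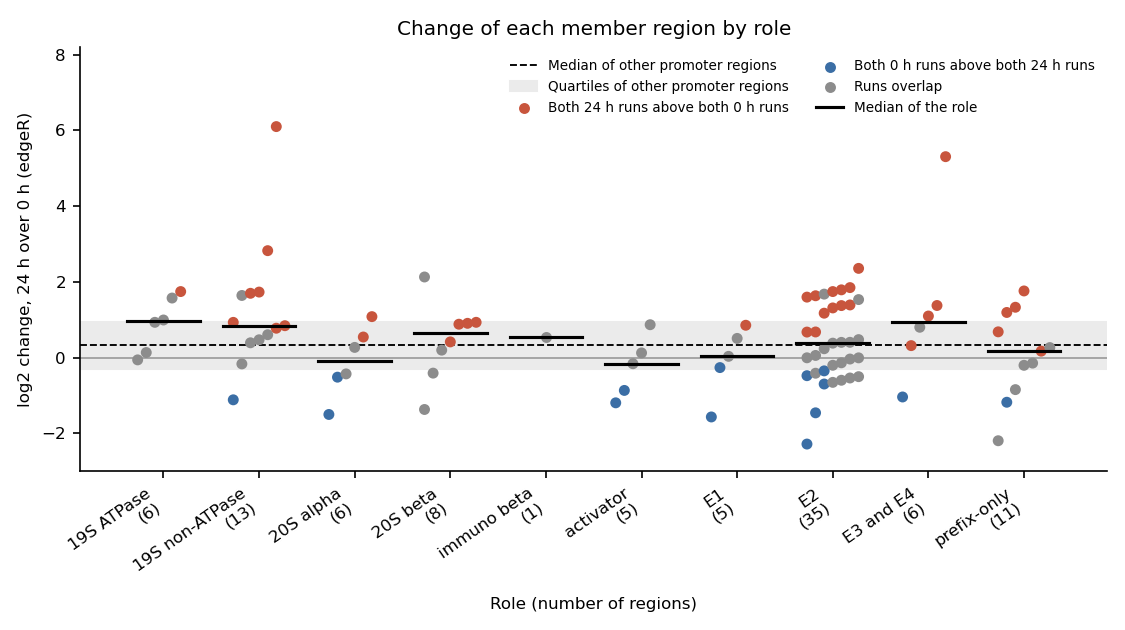
log2 change of 24 over 0 hours (y axis) of each member region by role (x axis, with the number of regions). Red points have both 24-hour runs above both 0-hour runs and blue points the reverse. The bars are role medians, from -0.16 for activators to 0.96 for 19S ATPases, against the dashed median of other promoter regions at 0.33. The highest point, a Psmd13 region with 0 counts at 0 hours, has a fitted value that depends on the test's prior count.

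Of the 6 regions of 19S ATPases, which unfold substrates and thread them into the core, 5 had a fitted log2 change above 0, beside 64.6% of other promoter regions and 48% of all regions, with a median of 0.96, and 0 passed the test. In the order of 0 h run 1, 0 h run 2, 24 h run 1 and 24 h run 2, the counts of this role were 42, 32, 49 and 77. Psmc4 had the highest share of cells, 16.7% (38 of 227), and Psmc2, whose region is shared with Dnajc2, the lowest, 3.96% (9 of 227). The counts of Psmc4 were 8, 8, 4 and 30, so 24 h run 2 alone was high and the time-points overlapped. The counts of Psmc3, which carries CCGGAA in the sequence above, were 4, 10, 6 and 24. Psmc2 had 4, 0, 7 and 6 counts and was the single ATPase region with both 24-hour runs above both 0-hour runs (log2 change 1.74 ± 1.16 (SE), with an unadjusted p of 0.138 by edgeR).

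The 13 regions of the 19S non-ATPase genes included 7 with both 24-hour runs above both 0-hour runs and 1 with the reverse, and 11 had a fitted change above 0, with a median of 0.84. Of other promoter regions 27.9% and 13.1% had no overlap in these directions and 64.6% had a change above 0. Psmd11, a lid subunit, had signal in 52 cells (22.9%), the highest of any member, with counts of 25, 10, 9 and 39, which overlapped between time-points. Psmd1, the large scaffold subunit of the base, had the lowest share, 4.41% of cells. The region 144 bp upstream of Psmd13, a lid subunit whose start faces that of Sirt3, had counts of 0, 0, 6 and 11, from 0 of 95 cells at 0 hours, which allows a share of up to 3.16%, and from 13 of 132 cells (9.85%) at 24 hours. Against a floor of 3 counts over the 0-hour runs, the signal was at least 5.49-fold higher at 24 hours, and the region missed the threshold (adjusted p 0.158). A region 387.5 bp downstream of the same start had counts of 5, 1, 15 and 3, which overlapped. Psmd6, another lid subunit, had 2, 1, 5 and 18 counts, a ratio of 7.43 with a counting interval from 2.24 to 38.7 (adjusted p 0.249). Its runs did not overlap, and 24 h run 2 held most of the signal. Without 24 h run 1 both Psmd13 and Psmd6 were called, in a fit with a lone 24-hour run where calls rose over all regions. Psmd8, a lid subunit, had 12, 10, 15 and 24 counts, and Psmd3, also of the lid, 8, 8, 12 and 20, each with the 24-hour runs above (log2 changes 0.77 ± 0.59 and 0.93 ± 0.66 (SE)). Psmd10, an assembly chaperone also called gankyrin, had 4, 1, 11 and 5 counts, and Psmd12 5, 2, 16 and 7. Psmd14, the deubiquitinase of the lid, had 9, 2, 7 and 12. Psmd4, the ubiquitin receptor whose sequence is given above, went the other way, with 17, 8, 9 and 2 counts and a log2 change of -1.12 ± 0.78 (SE, adjusted p 0.610). That change was -0.38 without 24 h run 2 and -2.62 without 24 h run 1, and neither fit called it.

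The regions of the 20S core did not have a shared direction. Of 6 alpha regions 3 had a fitted change above 0, with a median of -0.08, and of 8 beta regions 6, with a median of 0.65, beside 64.6% of other promoter regions. Psma3 had the most cells among alpha subunits, 17.2%, with counts of 24, 7, 9 and 27, and Psma7 the fewest, 2.20% in a region of 10 bp. Psma5 had 13, 4, 14 and 21 counts and Psma1 10, 4, 9 and 11, with the 24-hour runs above in normalized counts. Psma4 had 15, 7, 7 and 8 counts (log2 change -0.52 ± 0.74, SE, and -0.32 without 0 h run 1) and Psma2 10, 5, 4 and 1, with the 0-hour runs above, and both regions are shared with a neighbouring start. Among beta subunits, the Psmb3 region 114 bp upstream of the start had the most cells, 16.3%, with 12, 6, 18 and 16 counts, and its 24-hour runs lay above. The other Psmb3 region, 840.5 bp upstream, had 3, 2, 22 and 0 counts, so that 1 of the 24-hour runs held nearly all of its signal. Psmb1, given above and shared with Tbp, had 9, 3, 9 and 13 counts, Psmb4 had 9, 4, 9 and 8, and Psmb6, a catalytic subunit, 5, 3, 6 and 9, each with the 24-hour runs above. The pair of narrow Psmb7 regions, another catalytic subunit, had signal in 5 and 11 cells, with 5, 1, 2 and 0 and 4, 2, 0 and 7 counts.

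The immunoproteasome replaces the catalytic beta subunits in immune cells and after interferon. Psmb9, its single gene with a region here, had signal in 29 cells (12.8%) in a region shared with Tap1, the peptide transporter, with counts of 15, 4, 15 and 11 and a log2 change of 0.53. Its runs overlapped. Psmb8 and Psmb10 had no region within 1 kb in the table used here, nor did the catalytic subunit Psmb5.

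The activator regions had the lowest median of the proteasome roles, -0.16, with 0 of 5 regions above at 24 hours in both runs and 2 of 5 above at 0 hours, beside 27.9% and 13.1% of other promoter regions. Psme1 and Psme2 encode the subunits of PA28, the interferon-induced activator that opens the core. The Psme2 region 13 bp upstream of the start, given above and shared with Rnf31, had 18, 10, 6 and 6 counts, from 17 of 95 cells at 0 hours and 8 of 132 at 24 hours, and its runs did not overlap (log2 change -1.20 ± 0.72 (SE), adjusted p 0.538). Psme1 had 15, 6, 6 and 5 counts, also without overlap in normalized counts (-0.87 ± 0.81, SE, and -0.53 without 0 h run 1). Neither passed the test. The Psme2 region 555.5 bp upstream had 11, 7, 10 and 6 counts and overlapped. Psme4, the nuclear activator PA200, had 5, 4, 5 and 5 counts, and Psme3, the nuclear PA28 gamma, had the fewest cells, 2.64%, with 1, 1, 0 and 4.

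**Figure D5:**
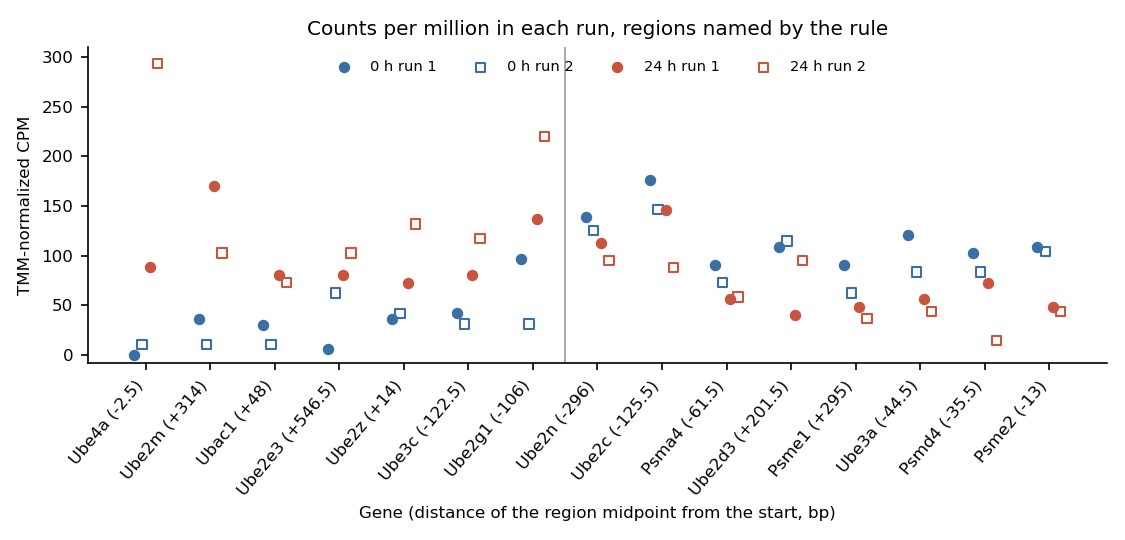
TMM-normalized CPM (y axis) in each run for 15 regions with signal in at least 20 cells and without overlap between time-points, from the 8 with the largest log2 change in each direction (x axis, with the distance of the region's midpoint from the start in bp). Ube4a lies at 0 and 10.4 in the 0-hour runs and at 88.9 and 293 in the 24-hour runs, and the Psme2 region at 109 and 104 against 48.5 and 44.

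Of the E1 enzymes, 5 genes had a region and the median change was 0.03. Uba3, the catalytic subunit of the NEDD8 E1, and Uba6, an alternative ubiquitin E1, each had signal in 17.2% of cells. The counts of Uba3 were 22, 13, 15 and 14, with the 0-hour runs above in normalized counts, and those of Uba6 12, 9, 15 and 24, with the 24-hour runs above (log2 changes -0.26 ± 0.57 and 0.85 ± 0.59, SE). Uba1, the main ubiquitin E1, on chromosome X, had 8, 7, 4 and 12 counts and overlapped. Uba7, the ISG15 E1, had 4, 5, 3 and 0 counts.

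The E2 enzymes made up the largest role, with 35 regions at 28 genes, of which 12 had the 24-hour runs above and 5 the 0-hour runs, with a median change of 0.38 and 0 calls. These counts lay near the 27.9% and 13.1% of other promoter regions. Ube2m, the NEDD8 E2 that acts on cullins, had 6, 1, 21 and 14 counts in a region 314 bp downstream of the start, and its runs did not overlap (log2 change 2.35 ± 0.77 (SE), adjusted p 0.202, and a change of 3.59 without 0 h run 1). Its other region, 61.5 bp upstream, had 14, 3, 9 and 39 counts and overlapped. Without 24 h run 1 this upstream region was called, in a fit with a lone 24-hour run where calls rose over all regions.

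Among the other E2 regions with the 24-hour runs above were those of Ube2g1, Ube2e3 and Ube2z. Regions of Ube2b, Ube2f, Ube2g2, Ube2j1, Ube2j2 and Ube2k also had the 24-hour runs above. Ube2g1, an E2 of cullin ligases and of degradation at the endoplasmic reticulum, had 16, 3, 17 and 30 counts 106 bp upstream, in the sequence above, and 8, 3, 12 and 15 counts 546.5 bp downstream, and both regions lay higher at 24 hours in both runs (1.37 ± 0.60 and 1.31 ± 0.75, SE). The change of the upstream region was 2.50 without 0 h run 1 and 0.88 without 0 h run 2. Ube2e3 had 1, 6, 10 and 14 counts (1.60 ± 0.87, SE), and its change was 0.57 without 0 h run 1 and 3.74 without 0 h run 2. Ube2z, which takes ubiquitin from Uba6, had 6, 4, 9 and 18 counts (1.39 ± 0.77, SE, and 0.90 without 24 h run 2). None of these passed the test. Ube2c, which starts ubiquitin chains with the anaphase-promoting complex in mitosis, had the most cells of the E2 genes, 21.6% (49 of 227), from 30 of 95 cells at 0 hours and 19 of 132 at 24 hours. Its counts were 29, 14, 18 and 12, with the 0-hour runs narrowly above in normalized counts (-0.48 ± 0.55, SE), and the change was -0.16 without 24 h run 2 and -0.88 without 24 h run 1. The sequence above holds CCAAT 3 times, on either strand. Ube2s, which extends these chains, had 24, 9, 14 and 17 counts and overlapped. Ube2d1, an E2 of broad use, had 11, 5, 2 and 1 counts, a ratio of 0.182 with a counting interval from 0.0339 to 0.635, the single member with an unadjusted p under 0.05 and lower values at 24 hours (p 0.0473, adjusted p 0.403). Ube2d3, of the same family, had 18, 11, 5 and 13 counts 201.5 bp downstream, and Ube2n, which builds lysine-63-linked chains, had 23, 12, 14 and 13, each with the 0-hour runs above (log2 changes -0.70 ± 0.66 and -0.35 ± 0.58, SE). The Ube2d3 change was -0.23 without 24 h run 1 and -1.44 without 24 h run 2. The lowest share of cells was that of a region 619 bp downstream of Ube2l6, the ISG15 E2, at 2.20%.

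The called region lies at the start of Ube4a, a U-box ligase that lengthens ubiquitin chains, at chr9:44965524-44965681 and overlapping its first exon. The counts were 0, 1, 11 and 40 in the 4 runs. Signal was found in 0 of 48 and 1 of 47 cells at 0 hours and in 7 of 60 (11.7%) and 21 of 72 (29.2%) at 24 hours. Over all cells the shares were 1.05% and 21.2%, and the 24-hour runs differed from each other. The time-points did not overlap, and 24 h run 2 held most of the signal. The ratio of the counts was 49.4 with a counting interval from 8.48 to 1990. The fitted log2 change was 5.30 ± 0.99 (SE, derived from the test statistic) with an adjusted p of 0.00932 by edgeR. The region rose at 24 hours in the fit with all runs, and the call was lost without 0 h run 1 (adjusted p 0.379) and without 24 h run 2 (0.209), while the fitted change lay from 4.10 to 7.77 when a run was left out. It was also lost with DESeq2 (adjusted p 0.736), with the number of cells as offset (0.183), with values reduced to detected or not (0.236) and with regions in at least 10 cells (0.0778). The 0-hour value rests on 1 count.

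The other E3 and E4 regions had no call. Ube3a, the ligase lost in Angelman syndrome, had 20, 8, 7 and 6 counts, from 18 of 95 and 8 of 132 cells, with the 0-hour runs above (log2 change -1.04 ± 0.72, SE). Ube3c, a ligase bound to the proteasome, had 7, 3, 10 and 16 counts with the 24-hour runs above (1.37 ± 0.77, SE). The Ube4b regions 219.5 bp and 16.5 bp downstream of its start had 10, 3, 13 and 14 and 5, 3, 5 and 5 counts, and the 24-hour runs lay above in both, though by a small margin in the second (log2 changes 1.10 and 0.32). Ube3b, shared with Kctd10, had signal in 3.08% of cells.

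The prefixes also took in 9 genes, with 11 regions, outside the proteasome subunits and the E1, E2, Ube3 and Ube4 enzymes. Of these, Psmc3ip with 1 region was counted in the proteasome class, and 8 genes with 10 regions in the ubiquitin class. Among the 9 genes, Ubac1, a component of the KPC ligase, had 5, 1, 10 and 10 counts (1.76 ± 0.93, SE, and 2.78 without 0 h run 1), with the 24-hour runs above. Ubap1, an ESCRT component, had 10, 8, 4 and 4 counts, with the 0-hour runs above. Ubald2 had the most cells, 18.1%, and a Ubap2l region the fewest, 4.41%. The role had a median change of 0.17.

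At 11 of the 14 genes with 2 regions the one nearer the start had signal in more cells, and at 10 the fitted changes of both had the same sign. Psmb7, Ubap2l, Ube2d2a and Ube2q1 had opposite signs. The Ubap2l regions had 5, 2, 7 and 9 counts 46.5 bp downstream of the start and 10, 1, 0 and 2 counts 761 bp downstream, and the Ube2q1 regions had 5, 0, 13 and 2 counts 332 bp upstream and 3, 5, 1 and 2 counts 826 bp upstream. The Ube2d2a regions had log2 changes of 0.40 and -0.01. The nearer and farther Ubald1 regions had signal in 37 and 17 cells and log2 changes of -0.20 and -0.15. No cell had signal in both Ube2l6 regions (0 cells).

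Of 50 other genes of the pathway 44 had promoter regions, 59 in all, and 0 passed the adjusted threshold by edgeR, with 7 (11.9%) at an unadjusted p under 0.05 higher at 24 hours and 0 lower, beside the 7.68% and 1.92% of other promoter regions. In 14 of the 59 regions the 24-hour runs lay above (23.7%) and in 4 the 0-hour runs (6.78%), beside 27.9% and 13.1% of other promoter regions, and the median change was 0.34, beside 0.33. Psmg1, a chaperone of 20S assembly, had 4, 2, 5 and 34 counts (log2 change 2.63, unadjusted p 0.00195), and Pomp, the maturation protein of the 20S core, had 7, 4, 15 and 13. Of the other chaperones of this assembly, Psmg4 had 2, 1, 6 and 9 counts with the 24-hour runs above, Psmg3 had 4, 4, 1 and 0 with the 0-hour runs above (-2.77), and the Psmg2 regions overlapped (-0.34 and -0.54). The other regions with the 0-hour runs above were those of Akirin2, which acts in nuclear import of proteasomes, with 18, 16, 11 and 4 counts, of the cullin Cul1 with 8, 3, 2 and 0, and of the shuttle factor Ubqln2 with 4, 5, 2 and 3. Adrm1, the ubiquitin receptor beside Psmd4 in the cap, had 14, 3, 11 and 32. Of the partners of Ube2m and Ube2f in cullin ligases, Rnf7 had 6, 3, 15 and 26 counts (log2 change 2.16) and an Rbx1 region 334 bp downstream 12, 7, 14 and 36 (1.37), each with the 24-hour runs above, while the Rbx1 region 72.5 bp upstream had 19, 12, 8 and 16 (-0.38) and overlapped. Sae1, a subunit of the E1 for SUMO, had 3, 2, 3 and 25. Nfe2l1, which drives transcription of proteasome genes, had 25, 12, 15 and 25 counts at its most accessible region and overlapped.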

How the data were processed

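Single-cell ATAC-seq counts of 227 cells in 20103 regions were used. Per the labels and the paper, the authors mapped reads to mm10 with Bowtie (Bowtie2 in the paper), removed duplicates with Picard, called peaks on bulk samples with HOMER and deposited whole-number counts per cell without normalization. No value is above 2. Whether higher values were capped is not stated in the sources used here. The bulk samples were not analysed here.

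Counts were summed per C1 run, since cells of a run are not replicates, and cells ranged from 334 to 7940 counts. All 20103 regions were fitted with edgeR 4.0.16 in R 4.3.3 (quasi-likelihood, TMM, Benjamini-Hochberg over all regions, threshold 0.05). Each region had signal in at least 5 cells, so no filter was applied. CPM values were TMM-normalized. Values marked SE are the absolute log2 change divided by the square root of the F statistic of the edgeR test. They are not a standard error reported by the fit. DESeq2 1.42.0, other scales and filters, values reduced to detected or not, other distances and starts, thinning to 837 counts (the 10th percentile of cells) and leaving out each run were alternatives. Intervals are exact (SciPy 1.17.1) at 95%, and a count of 0 allows up to 3 counts. They take counts as independent, though 52.8% of promoter values above 0 were 2, so they may be too narrow. Doublets were not called, since the study inspected each capture site.

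Member regions were compared with the GRCm38 genome, in which all 81 promoter sequences of member genes in the RefSeq table were identical at their coordinates. Of 91 regions of at least 50 bp, all had 1 copy at 90% identity over 80% of their length (BLAST 2.17.0). The members and gene lists were chosen with earlier results of these data known. Named regions were the called regions, the highest and lowest share of cells per role, up to 8 regions per direction without overlap and with signal in at least 20 cells, genes with 2 regions, the regions at the 1 kb limit and the genes Psmb8, Psmb9, Psmb10, Psme1, Psme2, Ube2c, Ube2s, Ube3a, Ube4a and Uba1. Further regions named, such as those of Psmd13, Psmd6 and the pathway lists, were chosen after their values were seen. Some regions that this rule names are not reported here.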

Additional observations from a re-analysis of the deposited data

How the results depend on the processing

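The count of 1 region called higher at 24 hours became 0 with the number of cells as offset, with regions in at least 10 cells, with values reduced to detected or not and with DESeq2, and it lay from 0 to 5 when a run was left out (regions of Ube2m, Psmd6, Psmd13 and Ube4a were among those called without 24 h run 1). In the fit without 24 h run 1, which leaves a lone 24-hour run, calls rose over all regions in both directions. The added member calls in that fit cannot be told apart from this general rise. The count of 0 called lower was 0 under all alternatives run. The Ube4a adjusted p lay from 6.71e-07 to 0.736 over its alternatives. Of 161 values for 15 named regions under alternatives, 155 kept their direction and their side of the threshold, 6 lost the call, all of Ube4a, and 0 reversed. These regions were chosen for runs without overlap or for a call, so the tally does not test their direction. Those other than Ube4a were not called in the main fit, and staying uncalled counted as keeping their side.

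The proteasome log2 change of 0.14 became 0.46 against all regions, 0.25 as a mean over cells, 0.22 with transcript starts and 0.42 in thinned cells, and lay from 0.065 to 0.22 when a run was left out. The ubiquitin change of 0.073 became 0.40, 0.099 and 0.033 against all regions, as a mean over cells and in thinned cells, 0.051 within 250 bp and 0.13 without the genes that share only the prefix. The median shares of cells fell to 3.92% and 4.66% in thinned cells. The causes were not tested. With the run number of the column names (1 or 2 at each time-point) as a replicate block, chosen after the data were seen and with 1 residual degree of freedom, 1 region was called higher, Ube4a (adjusted p 0.00412), and 0 lower. The labels do not say that a number marks a shared batch, and the deviations of same-numbered runs had r = -0.023 over all regions and 0.13 over the members, and the runs were not taken as pairs. The median member region held 12 counts at 0 hours and 18 at 24 hours, which limits what could be detected, and a lone run left at a time-point was assumed to vary like the others.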
